A study of Mus musculus with 18 samples.

Results

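The NMBA response of the mouse forestomach was compared between CCR2-/- and wild-type mice, gene by gene. The quantity followed throughout is the interaction, the NMBA-minus-control change in CCR2-/- mice minus the same change in wild-type mice, on log2(FPKM + 1). A negative value means that the change with NMBA was smaller, or more downward, in CCR2-/- mice. The same number is also the genotype difference under NMBA minus the genotype difference in controls, so each interaction can be traced to the controls, to the NMBA groups or to both. All entries of the table with a reference gene were members, 28934 of 57234 entries. Of these, 14765 had at least 0.5 FPKM (fragments scaled to transcript length and library size) in 3 or more libraries and were tested. A gene that is low throughout is therefore not covered.

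The 18 libraries are 1 forestomach each of male C57BL/6 mice, all of this strain and sex. Of the CCR2-/- mice, which carry a deletion of Ccr2 in every cell, 6 were given NMBA and 3 were controls. Of the wild-type mice, 6 were given NMBA and 3 were controls. Gavage with NMBA (N-nitrosomethylbenzylamine, 0.25 mg/kg) or, in controls, with 1% carboxymethyl cellulose was done 2 times weekly during 5 weeks, with harvest as week 25 closed. The labels give esophageal cancer as the cell type of every sample, controls included, and no age. The study writes of tumors as the sequenced material where the labels name the forestomach, and the share of tumor in each sample is not given in the sources used here. NMBA replicates 1 to 3 and 4 to 6 carry different code letters. A shift between the letters within an NMBA group can be fitted, while a shift between groups and one between their letters cannot be told apart, since no letter is in more than 1 group. The p-values measure the spread between these samples. In bulk tissue, fewer cells of a type and less RNA per cell cannot be told apart.

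CCR2 is the receptor for CCL2 and a few related chemokines, and it is best known for letting inflammatory monocytes leave the bone marrow and enter inflamed tissue, where they become macrophages and antigen-presenting cells. NMBA is a nitrosamine that alkylates DNA in squamous epithelium and causes squamous tumors in rodents. The forestomach of the mouse is lined by the same kind of stratified squamous epithelium as the esophagus, and it borders on the glandular stomach. Interferons from immune and epithelial cells induce the interferon-stimulated genes and MHC class I in most cells, while MHC class II is mainly carried by antigen-presenting cells.

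Squamous and glandular stomach markers were present in every library, the glandular ones at uneven levels. The 6 glandular markers Pgc, Gkn1, Gkn2, Tff1, Tff2 and Muc5ac took 1.44 to 14.6% of the FPKM of a library in CCR2-/- mice under NMBA, 5.88 to 9.70% in CCR2-/- controls, 1.99 to 9.23% in wild-type mice under NMBA and 1.18 to 11.7% in wild-type controls. The 4 squamous markers found took 1.89 to 3.13% in all libraries. The leukocyte marker Ptprc lay between 0.626 and 1.79 FPKM in all libraries. Ccr2 itself measured 0 to 0.0798 FPKM in CCR2-/- mice under NMBA and 0 to 0.0546 FPKM in CCR2-/- controls, against 1.30 to 3.43 FPKM in wild-type mice under NMBA and 1.83 to 2.37 FPKM in wild-type controls. Its interaction was 0.00 (95% interval -0.44 to 0.43), since the genotype difference was -1.62 under NMBA and -1.62 in controls. The paper's pictures include heterozygous mice while no label does, and the labels were followed.

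No gene passed the test of a different NMBA response. Of 14765 genes, 0 had an adjusted p under 0.05 in limma (0% called), and the smallest adjusted p was 0.893. At an unadjusted p under 0.05, 673 genes were past the threshold (4.56%), 292 with a higher response in CCR2-/- mice (1.98%) and 381 with a lower one (2.58%), where 738 would be past it without any difference. After quantile normalization the same counts were 405 and 349. Leaving out wild-type control replicate 1 gave 118 and 182, leaving out CCR2-/- control replicate 2 gave 157 and 252, and leaving out wild-type control replicate 2 gave 761 and 879. With NMBA replicates 1 to 3 only the counts were 316 and 397, and with NMBA replicates 4 to 6 only they were 296 and 306. Leaving out 1 library gave a call only without CCR2-/- control replicate 1, for Zfp422, a zinc-finger gene chosen after its values were seen. Zfp422 measured 3.95 to 5.54 FPKM in CCR2-/- mice under NMBA and 6.14, 1.06 and 1.18 FPKM in CCR2-/- controls, against 3.76 to 5.59 FPKM in wild-type mice under NMBA and 5.14 to 6.11 FPKM in wild-type controls. The genes described next are therefore given by their values, and none of their interactions is a call.

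The design sets how small a difference can be seen. The median standard error of an interaction was 0.22, and its 95% interval reached a median of 0.47 to either side. For 11886 genes (80.5%) the whole interval lay within a log2 difference of 1. Adding 1 to the FPKM draws the differences of low genes toward 0, so their intervals can be narrow for that reason alone. With 3 mice in each control group and 6 in each NMBA group, and an equal spread, 66.7% of the sampling variance of an interaction comes from the controls and 33.3% from the NMBA groups. Across the 14765 genes, Pearson's r between the response in CCR2-/- mice and the response in wild-type mice, which share no library, was 0.39. Between the genotype difference under NMBA and that in controls, which share no library either, it was 0.089, and genes are not independent replicates in either value.

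**Figure D1:**
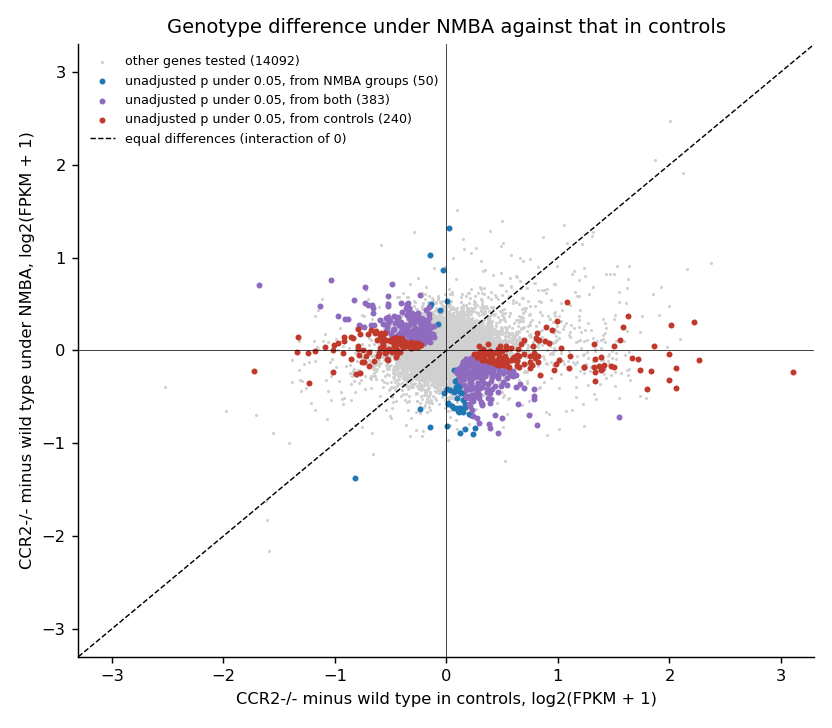
Each point is 1 of 14765 genes, with the CCR2-/- minus wild-type difference in controls on the x axis and under NMBA on the y axis, both on log2(FPKM + 1), colored where the interaction had an unadjusted p under 0.05. The 240 red points lie along the horizontal line, with genotypes apart in controls and close under NMBA, and the 50 blue points lie along the vertical line, with the exception of Slc6a20a (-0.82 in controls, -1.37 under NMBA).

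Among the 673 genes the controls gave the larger part of the typical interaction. The control share is the part of an interaction that comes from the controls, the negative of the genotype difference in controls divided by the interaction. Its median over these genes was 65.3%, against 66.7% of the sampling variance. A share of 0.75 or more put 240 genes with the controls, 109 of them higher and 131 lower. A share of 0.25 or less put 50 genes with the NMBA groups, 8 higher and 42 lower. The other 383 genes took their interaction from both sides, 175 higher and 208 lower. Leaving out 1 library moved the 240 to 117 (without wild-type control 1), 125 (CCR2-/- control 2), 370 (wild-type control 2), 378 (CCR2-/- control 1) and 482 (wild-type control 3). It moved the 50 to between 24 and 33 without any 1 of the 6 controls, to 33 without wild-type NMBA replicate 4, to 86 without wild-type NMBA replicate 2 and to 104 without wild-type NMBA replicate 5. Just inside the limit of 0.75 lay Calhm2 (0.7502) and just outside it Luzp1 (0.7487), and just inside the limit of 0.25 lay Nubp2 (0.248).

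Overlap between mice gave the same picture for the selected genes. In 174 of the 240 genes of the controls the CCR2-/- controls and wild-type controls did not overlap, which is so for 4.47% of all genes with CCR2-/- above and 4.74% with CCR2-/- below, while the NMBA groups did not overlap in 0. In 8 of the 50 genes of the NMBA groups the CCR2-/- and wild-type mice under NMBA did not overlap, against 0.122% of all genes above and 0.203% below. These counts follow from the choice of the genes. Of the 42 lower genes of the NMBA groups, 29 were processed pseudogenes, compared with 8 of the 131 lower genes of the controls and 863 of all 14765 genes tested.

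Genes called for the mean of both NMBA responses moved the same way in the 2 genotypes. The mean of the 2 responses, whose contrast is independent of the interaction, was called for 173 of 14765 genes (1.17%) at an adjusted p under 0.05 in limma, 119 raised and 54 lowered. All 173 moved the same way in both genotypes, a lean that choosing on the mean favors. Leaving out 1 library moved the count of 173 widely, to 23 to 53 without any 1 of the 6 controls, to 47 to 71 without CCR2-/- NMBA replicate 1 or 2 or wild-type NMBA replicate 1, 2 or 3, and to 277, 278 and 379 without wild-type NMBA replicate 4, wild-type NMBA replicate 5 and CCR2-/- NMBA replicate 4. It also depended on the fit, with 1654 genes from NMBA replicates 1 to 3 only and 12 from 4 to 6 only, 1771 with this split as a covariate, 1268 with the replicate number as a block, 844 with library weights and 20 with glandular and muscle scores as covariates. The median interaction of the 173 was -0.02, with quartiles of -0.23 and 0.08, and 5 of the 173 (2.89%) had an unadjusted interaction p under 0.05. Among the 119 raised genes the median response was 0.63 in CCR2-/- mice and 0.77 in wild-type mice, and 77 of their interactions were negative and 42 positive. Among the 54 lowered genes it was -0.45 in CCR2-/- mice and -0.47 in wild-type mice.

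Few genes were called within a genotype or within a treatment. The NMBA response in CCR2-/- mice had 3 calls at an adjusted p under 0.05 in limma (0.0203% of genes), Mir31, Krt17 and the entry 2310046K23Rik. The response in wild-type mice had 13 calls (0.088%), all raised, among them S100a8, Krt17, Sprr1b and Defb3. All 13 had the same sign in CCR2-/- mice, and only the joined entry BC117090 and BC100530, close copies of stefin genes, had an interaction with an unadjusted p under 0.05 (-2.27). Under NMBA, 7 genes differed between CCR2-/- and wild-type mice (0.0474%), which were Ccr2, Slc6a20a, Tmem254b, the XCL1 receptor gene Xcr1, the lysozyme gene Lyz1, Tifab and Zfp932. In controls 1 gene did (0.00677%), Ccr2. A call in one group and not in another is no test of a difference, and the interaction is that test.

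Krt17, a keratin of wounded and hyperproliferative epithelium (adjusted p = 0.00019 for the mean response, limma), had nearly equal mean responses in both genotypes. It measured 157, 224 and 280 FPKM in CCR2-/- mice under NMBA and 32.0, 53.2 and 42.7 FPKM in CCR2-/- controls. In wild-type mice it measured 97.2, 273 and 377 FPKM under NMBA and 30.9, 55.0 and 45.2 FPKM in controls. Here and below, 3 values of an NMBA group are its lowest, median and highest. The 3 values of a control group are its 3 mice in the order of their replicate numbers. The responses were 2.33 in CCR2-/- mice and 2.34 in wild-type mice, and the interaction was -0.01 (95% interval -1.09 to 1.07). Sprr1b, a cross-linked protein of the cornified envelope, had responses of 3.02 and 3.09 and an interaction of -0.06 (95% interval -1.66 to 1.53). Both intervals are wide enough to hold a log2 difference of 1 in either direction.

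S100a8, the calprotectin subunit of neutrophils and stressed epithelium, spread more widely. It measured 44.1, 80.6 and 560 FPKM in CCR2-/- mice under NMBA, against 1.87, 2.37 and 5.22 FPKM in CCR2-/- controls. Its wild-type values were 44.4, 165 and 787 FPKM under NMBA, against 1.47, 1.35 and 0.607 FPKM in controls. The responses of 4.89 in CCR2-/- mice and 6.45 in wild-type mice gave an interaction of -1.56 ± 1.21 (SE), within the spread between mice, and was -0.85 with NMBA replicates 1 to 3 and -2.26 with replicates 4 to 6. Defb3, an inducible epithelial beta-defensin, had responses of 4.13 and 4.71. On the lowered side, Foxp2, a forkhead transcription factor, had responses of -0.97 in CCR2-/- mice and -0.80 in wild-type mice, and a test of the interaction gave an unadjusted p of 0.601.

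**Figure D2:**
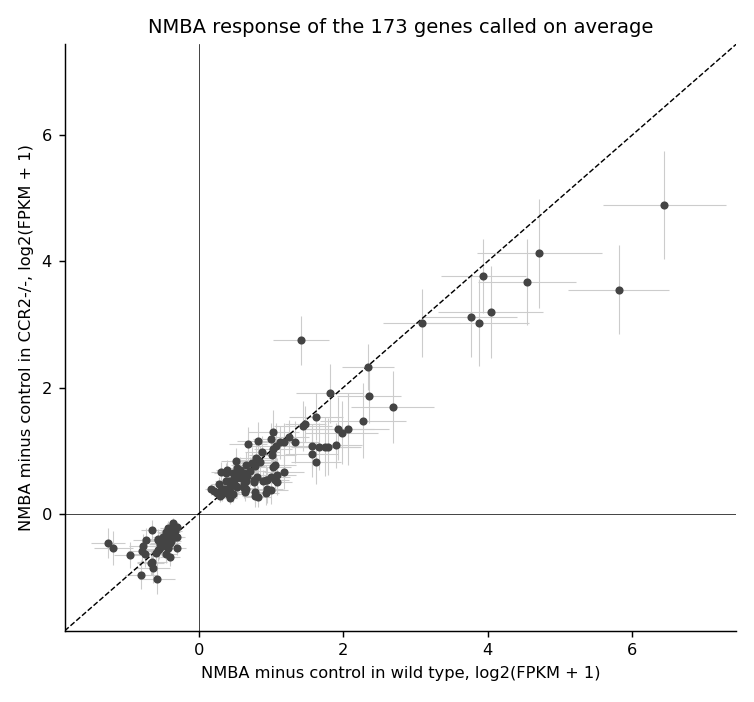
NMBA minus control in CCR2-/- mice (y axis) against wild-type mice (x axis), log2(FPKM + 1), for the 173 genes called on the mean of both responses, with bars of 1 standard error and the dashed line of equal responses. All 173 points lie in the 2 quadrants of equal sign, and Mir31 (2.75 in CCR2-/- mice, 1.42 in wild-type mice) lies furthest above the line.

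Interferon-stimulated genes leaned almost all to one side, and the lean sat in the controls. Of 27 genes tested, 26 had a negative interaction and 3 an unadjusted p under 0.05 (11.1%, against 4.56% of all genes), with a median of -0.59 against 0.02 over all genes. In controls all 27 were higher in CCR2-/- mice, with a median difference of 0.85, and under NMBA 20 were higher, with a median of 0.20. The median response was -0.41 in CCR2-/- mice and 0.17 in wild-type mice. Isg15, a ubiquitin-like protein attached to other proteins, Gbp3, a guanylate-binding protein, and Xaf1, an antagonist of an apoptosis inhibitor, were the 3 genes. Here and in every list below, the genes of a list come from the same mice and are not independent replicates. The lists were chosen with earlier results of these data known, so their counts and shares are descriptions and no test.

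Isg15 (chromosome 4) measured 8.89, 22.0 and 35.6 FPKM in CCR2-/- mice under NMBA, against 20.0, 101 and 59.1 FPKM in CCR2-/- controls. In wild-type mice it measured 7.51, 17.1 and 40.9 FPKM under NMBA, against 4.80, 7.61 and 24.6 FPKM in controls. The 2 NMBA groups covered nearly the same range, and the 2 control groups overlapped in 1 mouse on each side. The genotype difference was 0.31 under NMBA and 2.22 in controls, and the interaction -1.91 ± 0.81 (SE, unadjusted p = 0.031). Xaf1 had an interaction of -0.58 ± 0.22 and Gbp3 one of -0.82 ± 0.35, with genotype differences of -0.06 and -0.03 under NMBA.

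Glandular genes were higher in the same controls as the interferon group. The mean of the interferon group on log2(FPKM + 1) was 2.33, 3.59 and 2.96 in the CCR2-/- controls and 1.79, 1.88 and 2.64 in the wild-type controls, and the 16 glandular stomach genes averaged 7.26, 8.04 and 7.57 in the same CCR2-/- controls and 5.42, 6.10 and 7.70 in the same wild-type controls. Under NMBA the match was looser. Among CCR2-/- mice replicate 4 was highest for both the glandular (8.38) and the interferon genes (2.85). Among wild-type mice replicate 6 had the highest glandular mean (8.05) with an interferon mean of 2.07. With glandular and muscle scores as covariates the median interaction of the interferon group was -0.22 and the interaction was -0.91 for Isg15 and -0.36 for Xaf1. The median of the group was also -0.22 without the library of CCR2-/- control replicate 2, and -0.90 without that of replicate 1. The glandular genes themselves differed between the control groups (median 1.43, CCR2-/- minus wild type), so glandular content and genotype cannot be told apart there. The part of tissue composition in the interferon values was not tested.

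Promoters are shown for a pair of genes that lean together through the controls, Isg15 and B2m, the shared light chain of MHC class I. Each is 300 bases from RefSeq (GRCm38.p6), 250 before and 50 after the start of the gene, given 5′ to 3′ on the strand of the gene, with matches to the interferon-stimulated response element (GAAA, any 2 bases and GAAA, on either strand) in capitals. Isg15 lies at chr4:156200769-156201068 on the minus strand and holds 3 overlapping matches, and B2m lies at chr2:122147437-122147736 on the plus strand and holds 1.
Isg15: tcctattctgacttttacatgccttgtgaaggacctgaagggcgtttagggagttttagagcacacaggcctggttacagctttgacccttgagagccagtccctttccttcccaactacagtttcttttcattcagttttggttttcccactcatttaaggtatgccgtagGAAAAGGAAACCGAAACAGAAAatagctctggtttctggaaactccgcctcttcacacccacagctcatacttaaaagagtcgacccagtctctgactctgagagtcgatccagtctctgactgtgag
B2m: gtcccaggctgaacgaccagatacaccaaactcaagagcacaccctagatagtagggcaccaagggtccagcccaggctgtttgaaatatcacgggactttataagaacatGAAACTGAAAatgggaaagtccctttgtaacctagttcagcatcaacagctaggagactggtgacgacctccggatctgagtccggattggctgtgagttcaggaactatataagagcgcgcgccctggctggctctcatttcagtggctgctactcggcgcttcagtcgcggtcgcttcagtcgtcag
The motif was found in 1131 of 32851 promoters of the table (3.44%). Of the interferon-stimulated genes, 17 had a promoter there and 11 held it, and of the MHC class I and peptide loading genes 8 had one and 1 held it. A match describes letters only.

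MHC class I genes leaned the same way, again through the controls. Of 11 class I and peptide loading genes tested, 10 had a negative interaction, 5 of them at an unadjusted p under 0.05 (45.5%, against 4.56% of all genes), and 0 a positive one at that level. The median interaction was -0.56, with a median genotype difference of -0.06 under NMBA and 0.44 in controls. The median response was 0.00 in CCR2-/- mice and 0.64 in wild-type mice. Heavy-chain genes of this family are close copies of each other, so the division of reads among them is uncertain, as it is among the Sprr, Scgb and Chil genes named further on.

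B2m measured 524, 562 and 752 FPKM in CCR2-/- mice under NMBA, against 465, 787 and 544 FPKM in CCR2-/- controls. Wild-type mice gave 456, 666 and 741 FPKM under NMBA, against 269, 370 and 391 FPKM in controls. All 3 CCR2-/- controls were above all 3 wild-type controls, and the NMBA groups overlapped almost fully. The interaction was -0.83 ± 0.27 (SE, unadjusted p = 0.00664) with a control share of 0.94. H2-K1, a classical heavy chain, measured 111, 139 and 187 FPKM in CCR2-/- mice under NMBA and 110, 197 and 139 FPKM in their controls, against 127, 161 and 192 FPKM in wild-type mice under NMBA and 64.0, 87.5 and 111 FPKM in theirs. Its interaction was -0.94 ± 0.30, that of H2-D1, the other classical heavy chain of this strain, -0.56 ± 0.21, that of H2-Q7, a nonclassical heavy chain, -0.88 ± 0.41, and that of Psmb9, a subunit of the immunoproteasome, -0.69 ± 0.31. Among the 5 genes the control shares ran from 0.79 for H2-D1 to 0.94 for B2m.

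Chemokine ligands, which attract leukocytes, leaned the same way. Of 31 chemokine ligands tested, 25 had a negative interaction and 5 an unadjusted p under 0.05 (16.1%, against 4.56% of all genes), with a median of -0.32. The median was -0.20 without wild-type control replicate 1, -0.43 with NMBA replicates 1 to 3 and -0.18 with replicates 4 to 6. The median genotype difference was -0.13 under NMBA and 0.27 in controls. Of 16 chemokine receptors, 9 were negative and 7 positive, with a median of -0.02.

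Ccl8, a monocyte and lymphocyte chemoattractant, measured 12.8, 25.0 and 39.9 FPKM in CCR2-/- mice under NMBA and 31.6, 26.4 and 28.7 FPKM in CCR2-/- controls. In wild-type mice it measured 14.1, 30.4 and 40.1 FPKM under NMBA and 7.52, 15.5 and 13.6 FPKM in controls. The CCR2-/- controls were already at the level of both NMBA groups, and only the wild-type controls were lower. The interaction was -1.41 ± 0.48 (SE, unadjusted p = 0.0098). Ccl12, a ligand of CCR2 in the mouse, had an interaction of -0.92 ± 0.30 and a control share of 0.83. Xcl1, made by activated lymphocytes for cross-presenting dendritic cells, had one of -1.22 ± 0.43 with a share of 0.52. Ccl2, the main ligand of CCR2, measured 1.18 to 2.71 FPKM in CCR2-/- mice under NMBA, 1.54 to 2.21 FPKM in CCR2-/- controls, 0.999 to 2.52 FPKM in wild-type mice under NMBA and 1.45 to 1.59 FPKM in wild-type controls. Its interaction was -0.21 ± 0.29, or -0.63 with NMBA replicates 1 to 3 only and 0.20, of the opposite sign, with 4 to 6 only.

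T-cell genes were at low levels, lowest in the wild-type controls. Cd3e and Cd3d together measured 1.89 to 4.77 FPKM in CCR2-/- mice under NMBA and 1.52 to 2.57 FPKM in CCR2-/- controls, against 1.51 to 3.77 FPKM in wild-type mice under NMBA and 0.443 to 1.32 FPKM in wild-type controls. Of 13 genes of PD-1 signaling, 11 had a negative interaction and 3 an unadjusted p under 0.05 (23.1%, against 4.56% of all genes), with a median of -0.40, or -0.69 with a pseudocount of 0.1. The median genotype difference of this list was -0.04 under NMBA and 0.24 in controls. Of the 3 genes at an unadjusted p under 0.05, H2-Aa and H2-Eb1 are MHC class II genes and the other was Cd3g, a chain of the T-cell receptor complex. Cd3g measured 1.51 to 4.08 FPKM in CCR2-/- mice under NMBA, 1.39, 3.3 and 4.16 FPKM in CCR2-/- controls, 1.39 to 4.51 FPKM in wild-type mice under NMBA and 0.809, 2.04 and 1.03 FPKM in wild-type controls. Pdcd1, which encodes PD-1, measured 0.284, 0.839 and 1.34 FPKM in CCR2-/- mice under NMBA and 0.0747, 0.491 and 1.11 FPKM in CCR2-/- controls, against 0.218, 0.924 and 1.20 FPKM in wild-type mice under NMBA and 0.126, 0.0721 and 0.218 FPKM in wild-type controls. The interaction of Pdcd1 was -0.48 ± 0.30 (unadjusted p = 0.126) and that of Cd274, which encodes PD-L1, was -0.19 ± 0.27. For Pdcd1 it was -0.23 without CCR2-/- control replicate 3, -0.72 without replicate 1 of the same group and -1.25 with a pseudocount of 0.1. Pdcd1lg2, which encodes PD-L2, was under the limit on low values and was not tested, at 0, 0.120 and 0.218 FPKM in CCR2-/- mice under NMBA and 0.117, 0.0960 and 0.220 FPKM in CCR2-/- controls, against 0.0753, 0.181 and 0.273 FPKM in wild-type mice under NMBA and 0.0493, 0.0705 and 0.0569 FPKM in wild-type controls. Of the 17 T-cell markers all 17 had a positive response in both genotypes, with medians of 0.26 in CCR2-/- mice and 0.48 in wild-type mice, and 3 interactions were positive and 14 negative. All 7 cytotoxic lymphocyte genes tested had a negative interaction, with a median of -0.34, or -0.89 with a pseudocount of 0.1. Their median genotype difference was -0.08 under NMBA and 0.32 in controls. The 18 macrophage markers divided evenly, 9 positive and 9 negative, with a median of -0.03.

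Chil4, a chitinase-like protein of alternatively activated macrophages and stressed epithelium, had the most negative interaction of all genes tested. It measured 86.7, 332 and 964 FPKM in CCR2-/- mice under NMBA and 82.3, 396 and 298 FPKM in CCR2-/- controls. Wild-type values were 69.5, 466 and 1195 FPKM under NMBA and 8.52, 21.8 and 69.5 FPKM in controls. Each CCR2-/- control was above each wild-type control, and the interaction was -3.34 ± 1.28 (SE, 95% interval -6.05 to -0.64). All 11 alternative activation genes had a negative interaction, with a median of -0.43, which was -0.53 with NMBA replicates 1 to 3 and -0.26 with replicates 4 to 6. Their median genotype difference was -0.21 under NMBA and 0.17 in controls, so both sides took part.

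Plac8, a small cysteine-rich protein of monocytes and epithelium, had an interaction of -1.64 ± 0.68, Pfkfb3, an activator of glycolysis, one of -1.41 ± 0.47, and Gsr, the glutathione reductase, one of -0.82 ± 0.29. Their control shares were 0.90, 0.87 and 0.96. With glandular and muscle scores as covariates the interaction was -0.69 for Plac8, -1.06 for Pfkfb3 and -0.45 for Gsr. Areg, the EGF receptor ligand amphiregulin, measured 2.80, 3.92 and 4.41 FPKM in CCR2-/- mice under NMBA and 1.97, 3.49 and 4.29 FPKM in CCR2-/- controls, against 2.22, 2.83 and 4.99 FPKM in wild-type mice under NMBA and 0.945, 1.06 and 1.44 FPKM in wild-type controls. The wild-type controls lay below every other library, and the interaction was -0.73 ± 0.29. Dnaja4, a co-chaperone, measured 4.71 to 9.03 FPKM in CCR2-/- mice under NMBA, 6.81 to 8.48 FPKM in CCR2-/- controls and 7.69 to 10.5 FPKM in wild-type mice under NMBA, against 3.22 to 5.48 FPKM in wild-type controls, with an interaction of -0.80 ± 0.23. Scgb1b20, a secretoglobin, was listed at 0 in all wild-type controls and at 0.742, 7.32 and 2.34 FPKM in the CCR2-/- controls.

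Glandular stomach and adipocyte genes had the largest list medians. Of 16 glandular genes, 14 had a negative interaction and 2 an unadjusted p under 0.05 (12.5%, against 4.56% of all genes), with a median of -1.64. The genotype difference was -0.08 under NMBA and 1.43 in controls. Gkn2, a gastrokine of surface mucous cells, measured 693 to 5083 FPKM in CCR2-/- mice under NMBA, 3110, 6260 and 3890 FPKM in CCR2-/- controls, 1269 to 7116 FPKM in wild-type mice under NMBA and 744, 594 and 2680 FPKM in wild-type controls. Its interaction was -2.32 ± 0.96 and that of Gkn1 was -2.21 ± 1.01. All 12 adipocyte genes had a negative interaction, with a median of -1.31 and 0 at an unadjusted p under 0.05. Without wild-type control replicate 1 the list medians were -0.88 for glandular and -0.76 for adipocyte genes, and without wild-type control replicate 3, the one richest in Pgc, the glandular median was -2.49. With glandular and muscle scores as covariates they were -0.29 for glandular and -0.54 for adipocyte genes, and the interaction was -0.91 for Gkn2 and -0.75 for Gkn1. The glandular score of a library is the mean of these same 16 genes after scaling. The smaller values of the glandular list, Gkn2 and Gkn1 therefore follow from the fit itself.

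On the higher side, the named genes of the controls did not share one pattern. The CCR2-/- controls had the lowest mean of the 4 groups in Calhm2, Efs, Zfp219 and Sprr1a, whereas in Col9a2 and Cyp4b1 the wild-type controls stood above 3 groups with similar means. Col9a2, a chain of type IX collagen, averaged 0.39 ± 0.21 FPKM in CCR2-/- mice under NMBA, 0.391 ± 0.049 FPKM in CCR2-/- controls and 0.411 ± 0.10 FPKM in wild-type mice under NMBA, against 1.04 ± 0.14 FPKM in wild-type controls (SD, n = 6 under NMBA and 3 in controls). Calhm2, a calcium homeostasis modulator channel, measured 1.74, 2.21 and 2.52 FPKM in CCR2-/- mice under NMBA and 0.843, 1.44 and 1.03 FPKM in CCR2-/- controls, against 1.20, 1.77 and 2.58 FPKM in wild-type mice under NMBA and 2.21, 1.87 and 2.10 FPKM in wild-type controls. Its interaction was 0.73 ± 0.21. Efs, an adaptor protein of the Cas family, and Zfp219, a zinc-finger transcription factor, had interactions of 0.73 ± 0.21 and 1.02 ± 0.30, and in both the CCR2-/- controls lay below the wild-type controls without overlap. For Zfp219 it was 1.399 with NMBA replicates 1 to 3 and 0.63 with 4 to 6. Sprr1a, a small proline-rich protein of the cornified envelope, measured 517, 812 and 1288 FPKM in CCR2-/- mice under NMBA and 385, 367 and 488 FPKM in CCR2-/- controls, against 580, 741 and 893 FPKM in wild-type mice under NMBA and 974, 773 and 619 FPKM in wild-type controls. Its interaction was 1.06 ± 0.37 with a control share of 0.86.

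Junction and matrix genes leaned higher as lists. Long genes leaned the same way, with a median of 0.16 in the longest of 5 groups of protein-coding genes by exon length. The desmosome and collagen medians kept their sign with the exon length trend removed, and the part of length in their size was not tested. Of 18 desmosome and adhesion genes, 14 had a positive interaction and 2 an unadjusted p under 0.05 (11.1%, against 4.56% of all genes), with a median of 0.32, which was 0.13 without wild-type control replicate 1 but 0.51 when replicate 2 was the one left out. It was 0.08 with glandular and muscle scores as covariates and 0.19 with NMBA replicates 1 to 3, against 0.36 with 4 to 6. Its median genotype difference was 0.24 under NMBA and -0.02 in controls. Jup, which encodes plakoglobin, had an interaction of 0.53 ± 0.19 and Evpl, which encodes envoplakin, one of 0.95 ± 0.28. All 18 collagen genes had a positive interaction, with a median of 0.46, and 1 of them an unadjusted p under 0.05 (5.56%, close to the 4.56% of all genes), Col16a1 (0.59 ± 0.27). The median collagen response was -0.02 in CCR2-/- mice and -0.48 in wild-type mice. The collagen median was 0.10 with NMBA replicates 1 to 3 and 0.68 with replicates 4 to 6, and 0.27 without wild-type NMBA replicate 6. Cyp4b1, a cytochrome P450 of epithelium, had an interaction of 0.54 ± 0.21.

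Mir31, the gene of a microRNA known for high levels in squamous tumors, was the called gene of the shared response with the largest positive interaction, and it was chosen after its values were seen. The entry measures RNA from the locus in a library of total RNA, not the mature microRNA, which is shown because it is the known product of the locus, with its seed (bases 2 to 8) in capitals.
mmu-miR-31-5p: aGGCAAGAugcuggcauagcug
Mir31 measured 5.99, 10.3 and 17.6 FPKM in CCR2-/- mice under NMBA and 0.0249, 0.0205 and 3.46 FPKM in CCR2-/- controls. Wild-type mice gave 7.94, 10.02 and 15.6 FPKM under NMBA and 3.08, 3.73 and 2.91 FPKM in controls. The NMBA groups covered similar ranges, and 2 of the 3 CCR2-/- controls were near 0 while the other was at the wild-type level. The interaction was 1.32 ± 0.55 (SE, unadjusted p = 0.0269), with a genotype difference of -0.01 under NMBA and -1.34 in controls, and leaving out CCR2-/- control replicate 2 gave 0.97 whereas leaving out replicate 3 gave 2.03.

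**Figure D3:**
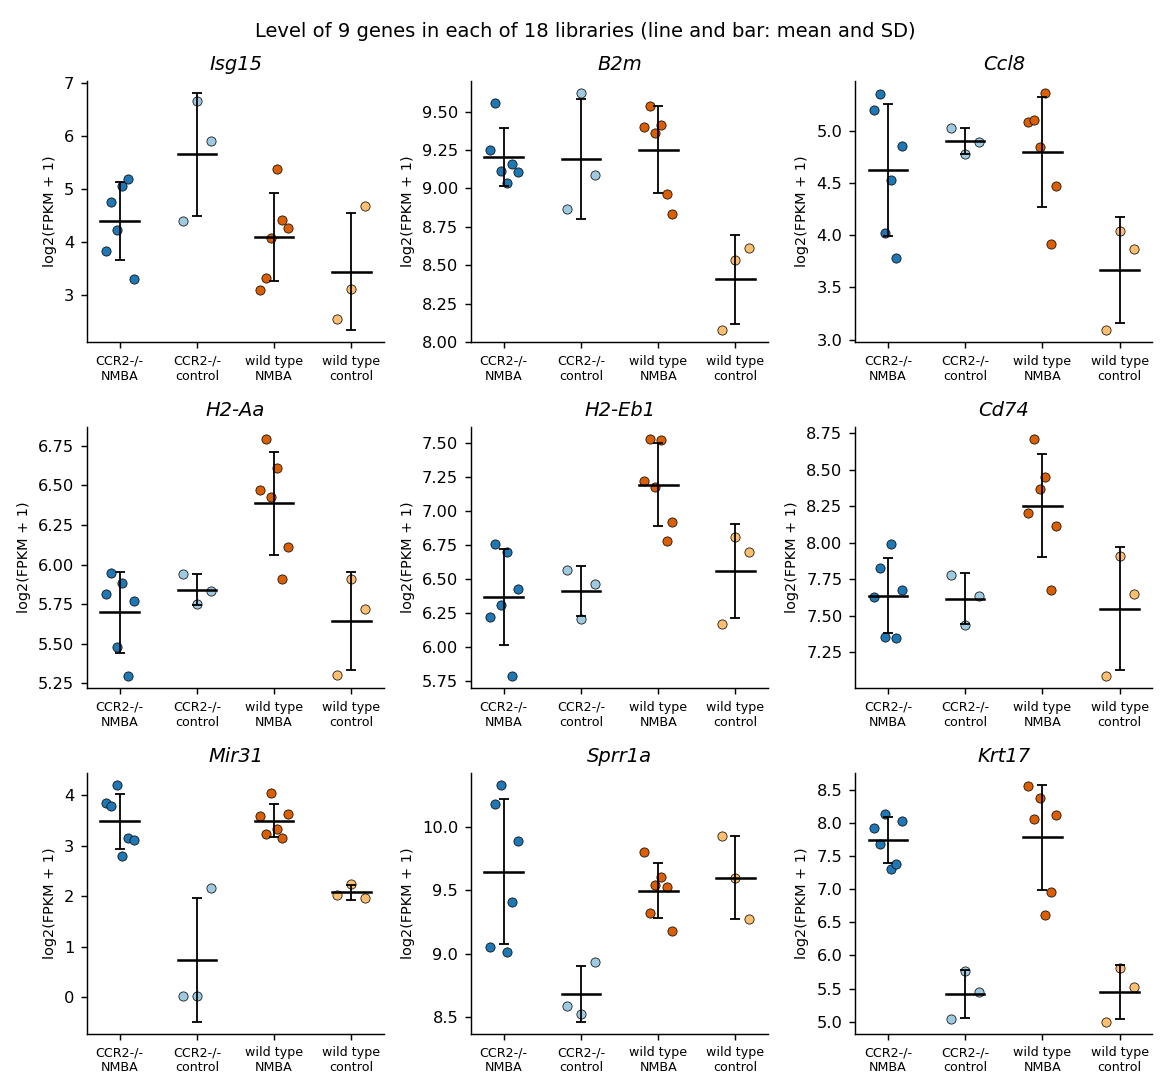
Level of 9 genes in each library on log2(FPKM + 1) (y axis, each panel with its own range), with the mean and SD of CCR2-/- mice under NMBA, CCR2-/- controls, wild-type mice under NMBA and wild-type controls from left to right. In the top row the wild-type controls have the lowest mean, and for Isg15 and Ccl8 the CCR2-/- controls also have the highest. In the middle row the wild-type mice under NMBA lie high. In the bottom row the CCR2-/- controls lie low for Mir31 and Sprr1a, while Krt17 has similar means in both genotypes.

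MHC class II genes took their interaction from the NMBA groups. Of 9 class II genes tested, 7 had a negative interaction and 3 an unadjusted p under 0.05 (33.3%, against 4.56% of all genes), with a median of -0.41. The median genotype difference was -0.55 under NMBA and 0.02 in controls, and the median response was 0.10 in CCR2-/- mice and 0.46 in wild-type mice. All 9 had a positive response in wild-type mice and 7 of 9 in CCR2-/- mice. The list median was -0.57 with NMBA replicates 1 to 3, -0.23 with NMBA replicates 4 to 6 and -0.25 without wild-type control replicate 1.

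H2-Aa, the alpha chain of the class II molecule I-A, measured 55.3, 60.7, 43.7, 58.1, 38.3 and 53.5 FPKM in the 6 CCR2-/- mice under NMBA and 60.5, 52.9 and 56.0 FPKM in CCR2-/- controls. Wild-type mice had 87.5, 110, 84.9, 96.6, 59.2 and 68.0 FPKM under NMBA and 38.5, 59.2 and 51.6 FPKM in controls. Only the wild-type mice under NMBA were high, and they overlapped the CCR2-/- mice under NMBA in 1 library on each side. The interaction was -0.89 ± 0.26 (SE, unadjusted p = 0.00373), with a genotype difference of -0.69 under NMBA and 0.20 in controls. H2-Eb1, the beta chain of the class II molecule I-E, measured 54.2 to 107 FPKM in CCR2-/- mice under NMBA and 93.8, 73.0 and 87.2 FPKM in CCR2-/- controls, against 109 to 184 FPKM in wild-type mice under NMBA and 70.9, 111 and 103 FPKM in wild-type controls. Its NMBA groups did not overlap, and the interaction was -0.69 ± 0.30. Cd74, the invariant chain that escorts class II molecules, measured 162, 200 and 254 FPKM in CCR2-/- mice under NMBA and 219, 172 and 198 FPKM in CCR2-/- controls, against 204, 311 and 419 FPKM in wild-type mice under NMBA and 135, 240 and 200 FPKM in wild-type controls, with an interaction of -0.68 ± 0.30, which was -0.45 without wild-type control replicate 1.

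The promoters of both class II chains are shown for the Y box, CTGATTGG on either strand, an element of class II promoters that nuclear factor Y binds, in capitals. They are RefSeq sequences of the same kind (GRCm38.p6), H2-Aa at chr17:34287774-34288073 on the minus strand and H2-Eb1 at chr17:34305617-34305916 on the plus strand.
H2-Aa: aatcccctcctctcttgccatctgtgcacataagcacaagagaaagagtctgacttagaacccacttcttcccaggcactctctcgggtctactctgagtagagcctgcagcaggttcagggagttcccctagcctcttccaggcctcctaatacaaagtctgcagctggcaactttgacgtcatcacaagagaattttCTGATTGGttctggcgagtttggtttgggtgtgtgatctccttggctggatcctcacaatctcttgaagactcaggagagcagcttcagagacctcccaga
H2-Eb1: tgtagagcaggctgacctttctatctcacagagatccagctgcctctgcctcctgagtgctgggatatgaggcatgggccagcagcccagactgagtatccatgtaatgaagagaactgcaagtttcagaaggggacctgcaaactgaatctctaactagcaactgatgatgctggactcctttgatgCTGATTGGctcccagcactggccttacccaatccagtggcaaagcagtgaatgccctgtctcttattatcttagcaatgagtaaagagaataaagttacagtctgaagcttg
The Y box was found in 1346 of 32851 promoters (4.10%), in 3 of 7 class II promoters, in 5 of 8 class I and peptide loading promoters and in 0 of 17 interferon-stimulated promoters, and the interferon-stimulated response element in 0 of 7 class II promoters.

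Among the other genes of the NMBA groups, Fcgr4, an activating receptor for IgG on monocytes and macrophages, measured 0.605, 0.844 and 1.03 FPKM in CCR2-/- mice under NMBA and 0.841, 1.13 and 0.763 FPKM in CCR2-/- controls, against 1.21, 1.45 and 1.83 FPKM in wild-type mice under NMBA and 0.431, 0.720 and 1.28 FPKM in wild-type controls. The NMBA groups did not overlap, and the interaction was -0.53 ± 0.19. On the higher side, Crnn, which encodes the squamous protein cornulin, had an interaction of 0.90 ± 0.37 with responses of 0.96 in CCR2-/- mice and 0.06 in wild-type mice, and one of 0.55 with NMBA replicates 1 to 3 and 1.25 with 4 to 6. Isx, an intestinal homeobox gene, measured 1.15, 2.50 and 2.96 FPKM in CCR2-/- mice under NMBA, against 1.24 to 1.35 FPKM in their controls, 1.13 to 1.46 FPKM in wild-type mice under NMBA and 1.22 to 1.46 FPKM in wild-type controls. Dyrk2, a protein kinase, and Rab22a, a GTPase of endosomes, had interactions of 1.18 ± 0.46 and 1.30 ± 0.57, and the controls of each genotype differed widely from each other. For Rab22a it was 0.80 without CCR2-/- control replicate 2, 1.92 with NMBA replicates 1 to 3 and 0.68 with replicates 4 to 6. Slc6a20a, a proline transporter, was lower in each CCR2-/- mouse than in each wild-type mouse under the same condition (0.325 to 0.894 FPKM against 2.24 to 4.33 FPKM in wild-type mice under NMBA, and 0.0626 to 0.618 FPKM against 0.847 to 1.63 FPKM in controls), so its interaction of -0.55 ± 0.24 is the difference of 2 differences of the same sign. It lies 423065 bases from Ccr2 on chromosome 9.

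The smallest p of all belonged to a gene near Ccr2. Ppp2r3d, a regulatory subunit of protein phosphatase 2A, lies 309065 bases from Ccr2 on chromosome 9 and has 3 entries in the table. The entry with the smallest p measured 1.24, 1.69 and 2.52 FPKM in CCR2-/- mice under NMBA and 0.625, 1.36 and 0.640 FPKM in CCR2-/- controls, against 0.998, 1.48 and 1.87 FPKM in wild-type mice under NMBA and 2.08, 2.93 and 1.98 FPKM in wild-type controls. Its interaction was 0.97 ± 0.23 (unadjusted p = 0.000573). The most abundant entry had an interaction of 0.15 ± 0.19 and the other one 1.01 ± 0.49, and all 3 were lower in CCR2-/- controls than in wild-type controls. Under NMBA the genotype difference was 0.13 for the entry with the smallest p, -0.27 for the most abundant entry and -0.70 for the other one. The division of reads among these entries is uncertain.

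Among genes that drew on both sides, H2-Q1, a nonclassical class I gene, measured 2.39, 2.87 and 3.71 FPKM in CCR2-/- mice under NMBA and 3.11, 3.98 and 3.42 FPKM in CCR2-/- controls, against 3.11, 3.42 and 4.12 FPKM in wild-type mice under NMBA and 1.66, 2.18 and 2.61 FPKM in wild-type controls. Its interaction was -0.71 ± 0.17 (unadjusted p = 0.000633). Dnase1, a secreted nuclease, had one of 0.45 ± 0.11 at levels under 0.6 FPKM, where adding 1 draws differences toward 0. Atf3, a stress-induced transcription factor, measured 1.14 to 2.27 FPKM in CCR2-/- mice under NMBA and 1.45 to 2.66 FPKM in CCR2-/- controls, against 1.69 to 2.75 FPKM in wild-type mice under NMBA and 0.842 to 1.16 FPKM in wild-type controls, with an interaction of -0.85 ± 0.22. Camsap3, which anchors microtubule minus ends, and Eya3, a transcriptional coactivator, had interactions of 0.61 ± 0.17 and 1.05 ± 0.30.

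Of 49 lists, 47 had at least 5 genes tested, and 26 of their medians were negative and 21 positive. Of 26 epithelial defence and serpin genes, 21 had a negative interaction and 0 an unadjusted p under 0.05, with a median of -0.38, which was -0.24 without CCR2-/- control replicate 3, -0.20 with NMBA replicates 1 to 3 and -0.16 without both libraries richest in Pgc. Of 15 cytochrome P450 genes, 10 had a positive interaction and 1 an unadjusted p under 0.05 (6.67%, against 4.56% of all genes), with a median of 0.38, which was 0.24 without wild-type NMBA replicate 6 and 0.14 with NMBA replicates 1 to 3. The 32 cell cycle genes had a median interaction of -0.02, and 30 of 32 had a positive response in CCR2-/- mice and 32 of 32 in wild-type mice. The 28 cornified envelope genes had 14 positive and 14 negative interactions. The 20 p53 targets had a median of 0.08 and the 16 genes for repair of alkylated DNA one of 0.08, with 0 of either list at an unadjusted p under 0.05, and the p53 median was -0.09 with the tissue scores as covariates. Of 32 oxidative phosphorylation subunits, 28 had a negative interaction and 4 an unadjusted p under 0.05 (12.5%, against 4.56% of all genes), with a median of -0.31, or -0.19 without wild-type control replicate 1 and -0.21 with the tissue scores, in which the NMBA groups (-0.19) and the controls (0.14) both took part. The oxidative phosphorylation median kept its sign with the exon length trend removed, and the part of length in its size was not tested. Ndufa13, a subunit of complex I and 1 of the genes of the NMBA groups, measured 22.9, 26.03 and 39.7 FPKM in CCR2-/- mice under NMBA and 47.1, 49.6 and 50.4 FPKM in CCR2-/- controls, against 35.5, 37.6 and 64.1 FPKM in wild-type mice under NMBA and 29.6, 57.9 and 47.8 FPKM in wild-type controls.

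**Figure D4:**
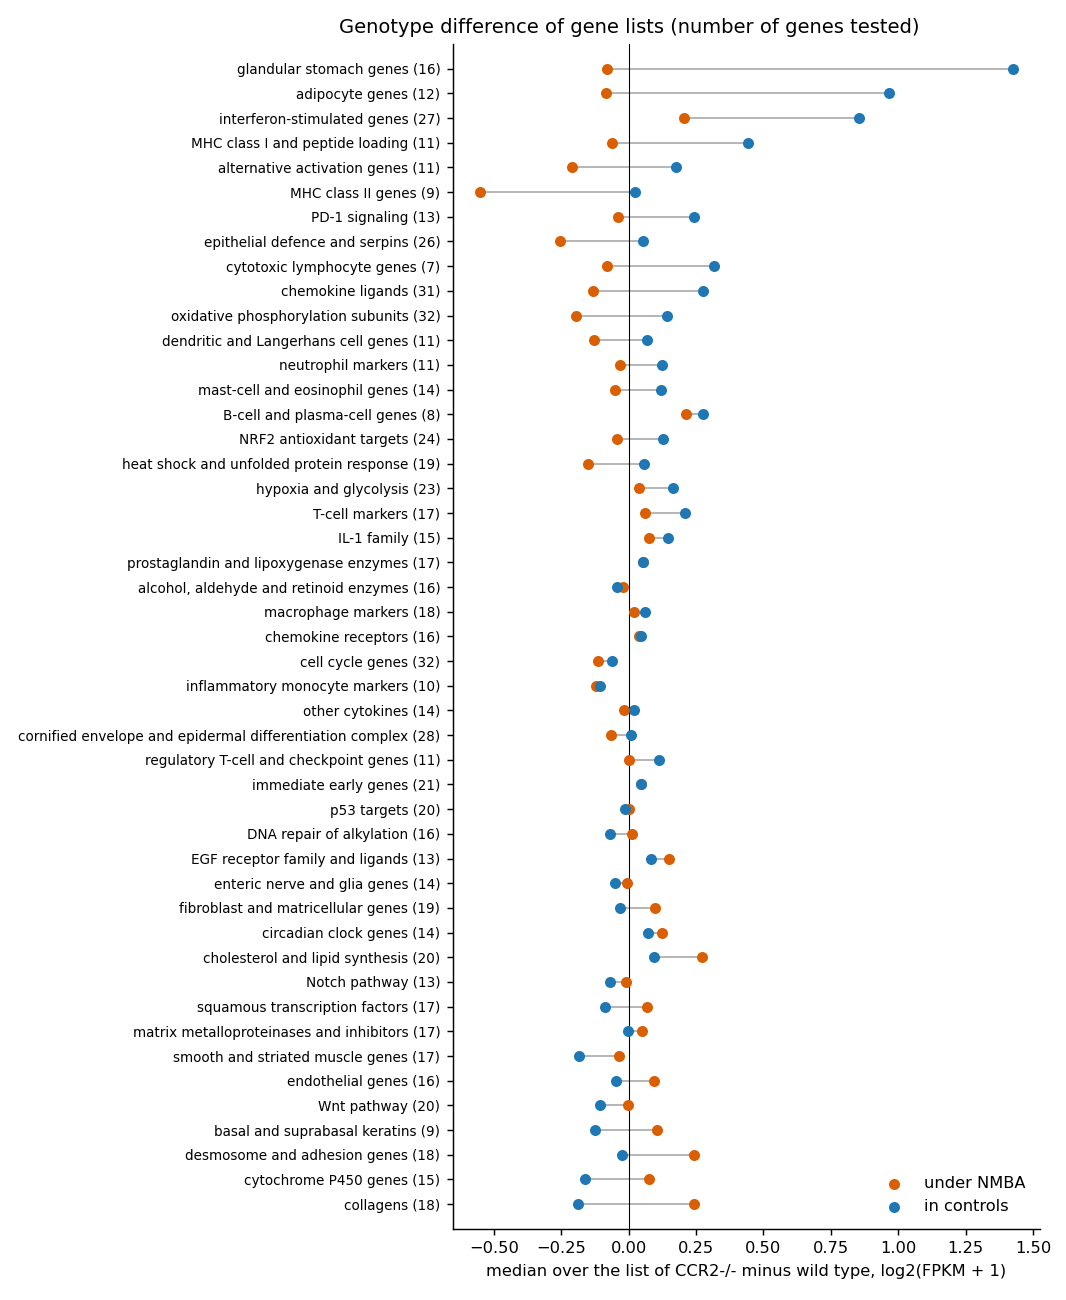
Median over each of 47 gene lists of the CCR2-/- minus wild-type difference in controls (blue) and under NMBA (orange), log2(FPKM + 1), ordered from the most negative median interaction at the top to the most positive at the bottom. The control point is far from 0 for glandular (1.43), adipocyte (0.97) and interferon-stimulated genes (0.85), while for MHC class II genes the NMBA point is (-0.55).

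The interaction also ran with gene length. Protein-coding genes were put by exon length into 5 groups of 2426. The shortest group (123 to 2344 bases) had a median interaction of -0.13, and an unadjusted p under 0.05 was reached by 29 genes on the higher and 103 on the lower side. The longest group (7319 bases and above) had a median of 0.16, with 62 higher and 9 lower. Of 863 processed pseudogenes, which are short, 10 were higher and 112 lower, with a median of -0.17. Rps19-ps2, a pseudogene of a ribosomal protein, was one of them with an interaction of -0.69 ± 0.26.

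Single libraries of a group differed widely in this balance of short and long genes. The shortest minus the longest group, as the median deviation of a library from the mean of all libraries, was -0.26 to 0.05 in CCR2-/- mice under NMBA and -0.07 to 0.19 in CCR2-/- controls, against -0.20 to 0.54 in wild-type mice under NMBA and -0.30 to 0.41 in wild-type controls. With each library's trend on exon length removed, 365 genes had an unadjusted p under 0.05 on the higher side and 346 on the lower side, and 0 had an adjusted p under 0.05. Under the same removal H2-Aa, B2m and Isg15 kept the sign of their interaction. RNA quality of the samples was not measured in the data used here, and its part was not tested.

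**Figure D5:**
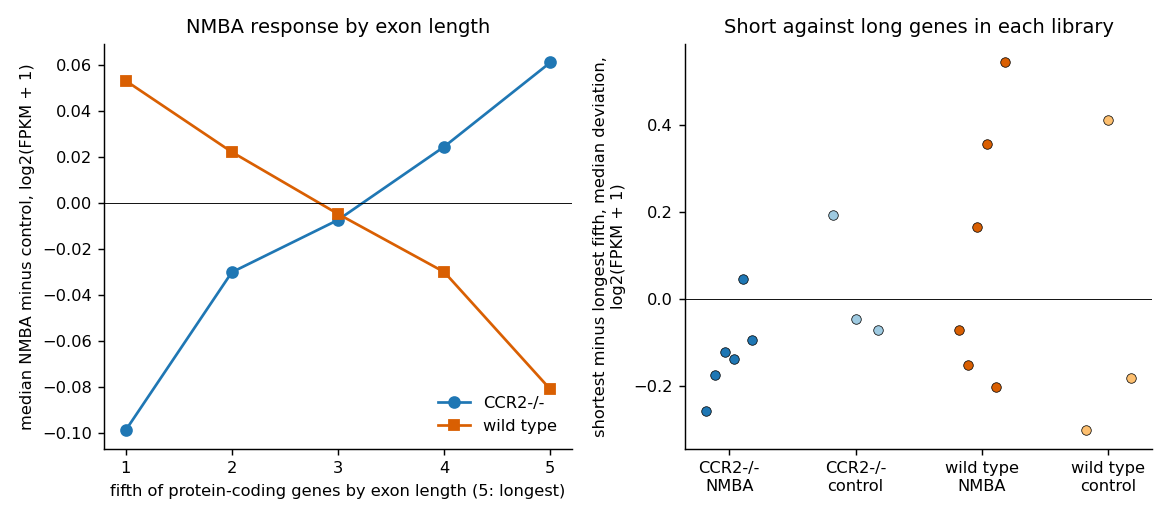
Left, median NMBA minus control on log2(FPKM + 1) in 5 groups of protein-coding genes by exon length, for CCR2-/- and wild-type mice, where the lines cross, at -0.10 and 0.05 in the shortest group and 0.06 and -0.08 in the longest. Right, the shortest minus the longest group in each library by group, from -0.30 to 0.54.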

How the data were processed

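The deposited table gives 1 FPKM value per entry and library, computed by the authors against mm10 (GRCm38, per the labels' processing notes, which also name DESeq2). The aligner, the counting program and the strand setting are not given in the sources used here, and whole-read depth is unknown. FPKM summed to 365800 to 491700 per library. Entries without a reference gene (28300, 4.11 to 8.09% of FPKM) were left out. Of the tested entries 506 join several gene symbols.

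Values were analyzed as log2(FPKM + 1) for entries with at least 0.5 FPKM in 3 libraries. All 18 libraries entered 1 limma fit (4 groups, limma 3.58.1, statmod 1.5.0, R 4.3.3, moderated with a trend on the mean), without a replicate block, with two-sided tests and Benjamini-Hochberg adjustment over 14765 genes. A fold change on this scale understates low genes. The fit was tested on simulated data. Tables and figures used Python 3.11.15, pandas 2.3.3, numpy 2.4.6 and matplotlib 3.10.9. Promoters and miR-31 are from RefSeq tables (GRCm38.p6).

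The members and gene lists were chosen with earlier results of these data known. Named genes were Ccr2, Ccl2, Pdcd1, Cd274 and Pdcd1lg2, the 6 smallest p per direction of genes from the controls or from the NMBA groups and the 3 smallest of those from both, up to 3 genes per list with an unadjusted p under 0.05, and the 10 largest mean responses per direction. Genes without an ordinary single symbol were passed over. Slc6a20a, Psmb9, H2-Q7, Xcl1, Mir31, Ndufa1 and Zfp422 were outside this rule and chosen after their values were seen. Alternatives were a pseudocount of 0.1, other filters, upper quartile and quantile scaling, library weights, a robust prior, a replicate block, NMBA replicates 1 to 3 or 4 to 6, tissue scores, other class limits, each library left out and, chosen after seeing the data, a trend on exon length removed.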

Additional observations from a re-analysis of the deposited data

Results flagged for a closer look

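Among 58 named genes, 116 sets of 6 NMBA libraries were screened for a library far from the rest, where chance flags about 1 in 20 (5.8 expected), and 8 were found. In wild-type mice under NMBA, replicate 5 was lowest for Pdcd1 (0.218 FPKM) and Cd3g (1.39 FPKM) and highest for Dnaja4 (10.5 FPKM), replicate 6 was highest for Scgb1b20 (0.941 FPKM) and lowest for Efs (6.37 FPKM), and replicate 2 was highest for Dnase1 (0.408 FPKM). In CCR2-/- mice under NMBA, replicate 1 was lowest for Dyrk2 (4.32 FPKM) and replicate 4 for Eya3 (3.87 FPKM).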

How the results depend on the processing

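No gene passed an adjusted p under 0.05 for the interaction in any of the 15 alternative settings (smallest adjusted p 0.262, with library weights), and leaving out 1 library gave 0 to 1 calls (Zfp422, limma adjusted p = 0.0013). Of the 58 genes followed through all settings, 53 kept the sign of their interaction in every setting they entered (15, or 14 for Pdcd1, Scgb1b20, Dnase1 and Fabp1) and 52 also in all 18 runs without a library. The robust prior, the other filters and the use of all entries leave the estimated interaction of a gene unchanged. So do the replicate block and the split of replicates as a covariate, and none of these could turn a sign.

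Counts of genes at an unadjusted p under 0.05 moved with no filter (627 higher, 608 lower, 507 from the controls), library weights (680, 797 and 507), both libraries richest in Pgc left out (715 lower, 641 from the controls) and tissue scores (575 lower). NMBA replicates 1 to 3 only gave 111 genes from the NMBA groups, and NMBA replicates 4 to 6 only gave 97 from the controls and 104 from the NMBA groups. All entries gave 77 from the NMBA groups, class limits of 0.6 and 0.4 gave 397 and 129, and an unadjusted p under 0.01 gave 29 and 7. Genes called on the mean response numbered 47 with no filter, 307 with quantile normalization, 844 with library weights, 1654 and 12 with NMBA replicates 1 to 3 and 4 to 6 only, 1771 with this split as a covariate, 67 without both Pgc-rich libraries, 20 with tissue scores and 401 with the exon length trend removed. Without 1 library, genes higher ran from 118 to 761, lower from 182 to 879, from the controls from 117 to 482, from the NMBA groups from 24 to 104, and called on the mean response from 23 to 379. With a pseudocount of 0.1 the interactions of low genes were wider, as for Mir31 (3.12), Xcl1 (-2.43), Dnase1 (1.36), Atf3 (-1.31), Calhm2 (1.14) and Fcgr4 (-0.99), but not for Slc6a20a (-0.33). The causes were not tested.

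Signs turned for interactions near 0. Ccr2 was 0.099 with a pseudocount of 0.1, 0.014 with library weights, 0.19 with NMBA replicates 4 to 6 and -0.098 to 0.091 without 1 library. Ccl2 was 0.20 with NMBA replicates 4 to 6. Krt17 was 0.11 with quantile normalization, 0.37 with NMBA replicates 4 to 6, 0.032 without both Pgc-rich libraries, 0.064 without the length trend and -0.25 to 0.21 without 1 library. Sprr1b was 0.22 with NMBA replicates 1 to 3, 0.38 without both Pgc-rich libraries, 0.047 without the length trend and -0.47 to 0.23 without 1 library. Foxp2 was 0.067 without both Pgc-rich libraries and -0.49 to 0.058 without 1 library, and Cd274 was -0.33 to 0.0079.

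With the replicate number as a block, 0 genes were called for the interaction (unadjusted p under 0.05 in 227 genes on the higher side and 420 on the lower) and 1268 on the mean response. Deviations of same-numbered libraries (8 of 21 pairs had r above 0.1, range -0.40 to 0.43) spanned no wider a range than the 96 other pairs (-0.59 to 0.53). These correlations cannot decide whether the numbers pair the mice. Depth is unknown, and the 3 mice per control group limit the precision of every interaction.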
